A study of Mus musculus with 6 samples.

Results

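The EGR and NR4A early response genes form a group of 10 genes that switch on within a short time of a signal to the cell, or that act on those that do. They were taken by symbol: the EGR transcription factors Egr1, Egr2 and Egr3, the NR4A nuclear receptors Nr4a1, Nr4a2 and Nr4a3, the EGR corepressors Nab1 and Nab2, and the early response regulators Ier2 and Cited2. All 10 were found among the 22180 genes that have a probe set with a single symbol, and all 10 were among the 16635 genes tested after a filter on low values. Where a gene has several such probe sets, the brightest one on average was used.

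The RNA came from sorted LT-HSC, the long-term stem cells of mouse bone marrow from which all blood lineages can be rebuilt, taken 4 months after a marrow transplant. There were 6 arrays in 3 same-numbered pairs: 3 pools of animals expressing NPMc+, the mutant nucleophosmin that gathers in the cytoplasm in a common form of acute myeloid leukaemia, and 3 pools of control animals. All 6 samples carry the strain label C57/BL6. The labels do not say which promoter or allele drives NPMc+, which cells of the host remain, or the age of the animals.

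EGR proteins bind GC-rich DNA through zinc fingers and are induced by growth factors and stress through MAP kinases and serum response factor. NR4A proteins are nuclear receptors that work without a known ligand and are controlled largely through their amount. Cyclic AMP and calcium signals induce them through CREB. In mouse stem cells Egr1 is known to restrain division and release into the blood, Nr4a1 and Nr4a3 to restrain division and leukaemia, and Cited2 to sustain the stem cell pool. The same genes are also known to respond to the dissociation and sorting of cells.

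The stretches of DNA before the transcription start of 5 of these genes are shown because they carry the letters through which early response genes are known to receive signals. RefSeq promoter windows of the GRCm38.p6 build ran from 250 bases before to 50 bases after a start. They were used for 7 of the 10 genes, with 11 windows in all since Egr2 has several starts. Egr1, Egr3 and Ier2 have no window among the 11, so the motif counts given for these genes do not cover them. Both strands were searched for the CArG box, which serum response factor binds, for the full cyclic AMP response element TGACGTCA and its core TGACG, which the full one contains, for the EGR site GCGNGGGCG and for the NR4A site AAAGGTCA. The 250 bases before the start are printed 5′ to 3′ on the strand of the gene, with matches in capitals, those on the opposite strand appearing as their reverse complement, such as CGTCA for the core. The windows lie at chr10:67537619-67537868 on the plus strand for Egr2, chr15:101266596-101266845 on the plus strand for Nr4a1, chr2:57124004-57124253 on the minus strand for Nr4a2, chr4:48045055-48045304 on the plus strand for Nr4a3 and chr1:52500449-52500698 on the minus strand for Nab1.
Egr2: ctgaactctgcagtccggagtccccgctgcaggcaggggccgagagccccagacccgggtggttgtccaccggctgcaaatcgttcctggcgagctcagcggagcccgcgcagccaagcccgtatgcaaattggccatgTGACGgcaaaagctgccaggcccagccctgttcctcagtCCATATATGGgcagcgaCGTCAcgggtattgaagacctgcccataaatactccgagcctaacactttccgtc
Nr4a1: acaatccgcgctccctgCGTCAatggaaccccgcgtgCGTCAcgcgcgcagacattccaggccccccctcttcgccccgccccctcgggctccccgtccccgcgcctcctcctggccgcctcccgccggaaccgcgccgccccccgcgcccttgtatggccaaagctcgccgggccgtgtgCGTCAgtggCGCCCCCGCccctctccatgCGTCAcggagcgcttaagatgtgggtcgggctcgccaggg
Nr4a2: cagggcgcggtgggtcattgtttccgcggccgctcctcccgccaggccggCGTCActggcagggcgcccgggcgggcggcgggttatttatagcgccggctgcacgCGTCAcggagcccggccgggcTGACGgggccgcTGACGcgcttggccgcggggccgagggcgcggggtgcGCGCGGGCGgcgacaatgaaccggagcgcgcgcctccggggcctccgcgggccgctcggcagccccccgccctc
Nr4a3: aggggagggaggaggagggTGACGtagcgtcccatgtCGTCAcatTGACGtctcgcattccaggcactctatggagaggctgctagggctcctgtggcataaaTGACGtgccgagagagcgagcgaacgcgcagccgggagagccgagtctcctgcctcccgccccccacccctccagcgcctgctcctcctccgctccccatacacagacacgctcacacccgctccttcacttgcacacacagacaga
Nab1: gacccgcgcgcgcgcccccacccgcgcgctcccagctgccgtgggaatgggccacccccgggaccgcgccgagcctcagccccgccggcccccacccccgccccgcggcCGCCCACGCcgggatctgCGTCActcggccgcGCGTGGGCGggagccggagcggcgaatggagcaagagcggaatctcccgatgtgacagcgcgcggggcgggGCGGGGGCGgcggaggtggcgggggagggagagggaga

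Each of the 3 NR4A windows held 4 core cyclic AMP response elements. In Nr4a1 they began 233, 213, 69 and 40 bases before the start, and in Nr4a3 231, 213, 205 and 147 bases before it. Of the 32851 windows in the table, 20.8% held at least 1 core element and 0.231% held 4 or more, a bound set after the NR4A windows had been seen. The full element stood in 1.79% of all windows and in none of the 11 of these genes.

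The Egr2 window printed here held a CArG box 72 bases before the start, between 2 core elements. Of the 5 Egr2 windows 4 held a CArG box, but 3 of the 5 overlap and share the same one. A CArG box stood in 1.63% of all windows. EGR sites stood in Nr4a1, Nr4a2 and Nab1, with 3 in Nab1. Of all windows 5.55% held at least 1 and 0.195% held 3 or more, a bound set after the Nab1 window had been seen. The EGR site is nearly all G and C, which made up 81.7% of the Nab1 window. The NR4A site stood in 1.51% of all windows and in none of these 11. The windows of Nab2 and Cited2 held none of the 5 motifs. These matches are letters in a window and say nothing of binding in these cells.

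**Figure D1:**
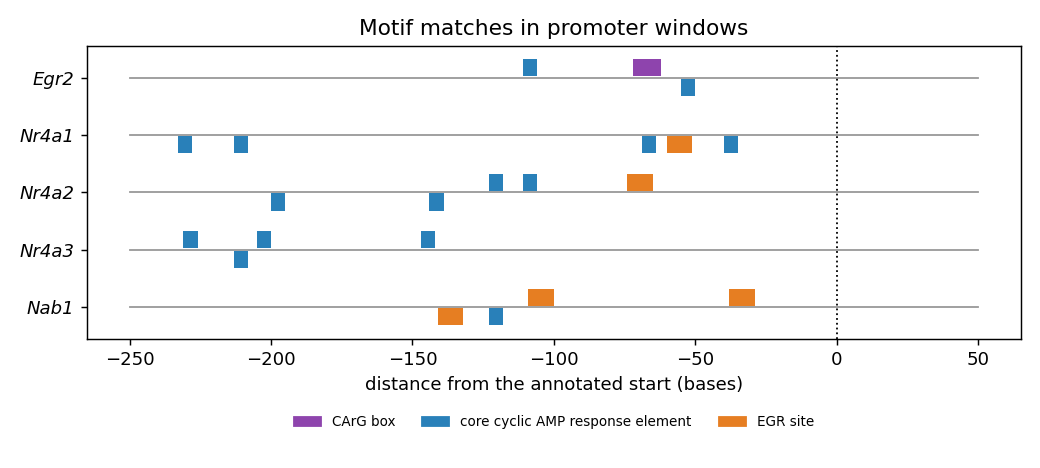
Motif matches in the promoter windows of Egr2 (1 of its 5 windows), Nr4a1, Nr4a2, Nr4a3 and Nab1. The horizontal axis is the distance from the annotated transcription start in bases, marks above a line are matches on the strand of the gene and marks below it on the opposite strand; each NR4A window has 4 core cyclic AMP response elements and Nab1 has 3 EGR sites.

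The values are log2 expression after RMA, a method that brings arrays to a common scale and summarises each probe set. Array medians lay between 3.9 and 3.99 log2 units. An NPMc+ array and its same-numbered control averaged to the same value in all 3 pairs, within 0.001 log2 units, in 100% of the 41345 probe sets. An array and its partner therefore lie at equal distances on either side of a gene's centre, both groups have the same SD, and only the 3 differences within pairs carry an independent spread. In such values the groups fail to overlap exactly where all 3 differences have 1 sign. Npm1, the gene of nucleophosmin, averaged 11.57 log2 units in NPMc+ pools and 11.76 in control pools, a difference of -0.19 ± 0.18 (SE). The labels do not say whether its probe set reads the mutant, so this does not check them. The pools differed in Xist, which coats the inactive X chromosome, by -5.44 log2 units in pair 1, -5.39 in pair 2 and 0.48 in pair 3. The Y-linked genes Eif2s3y, Kdm5d and Uty differed by 5.49, 3.48 and 4.68 in pair 1, by 0.36, 1.29 and 0.93 in pair 2 and by -0.79, -0.67 and 0.35 in pair 3. The sex-linked RNAs thus differed in both directions in pair 1, and mainly in Xist in pair 2. Their mean differences between the groups were -3.45 ± 1.10 log2 units for Xist and 1.68 ± 1.08 for Eif2s3y (SE). For Kdm5d and Uty they were 1.37 ± 0.68 and 1.99 ± 0.77. The groups were thus not matched in these RNAs. The part of sex make-up in the differences of the early response genes was not tested.

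Of the 10 genes, Egr1, Nr4a1 and Cited2 were higher in NPMc+ LT-HSC at a nominal (unadjusted) p under 0.05 in the limma fit with the pair as a block, by 1.56-fold, 1.4-fold and 1.44-fold, and 0 were lower. Over all 16635 genes tested, 5.95% were higher and 3.02% lower by the same rule, 8.97% in all. No gene of the 10 passed the adjusted threshold of 0.05 (limma adjusted p 0.429 to 0.997), and 0% of all genes did, the smallest adjusted p being 0.0928; 1492 of all genes had a nominal p below 0.05. In a limma fit without the block, which counts the tied arrays described above as independent, Egr1 (adjusted p 0.0188) and Nr4a1 (0.0390) passed the adjusted threshold, as did 4.98% of all genes, 3.35% in the higher direction. Egr1, Nr4a1, Nr4a2, Ier2 and Cited2 were higher in 3 of 3 pairs, where 17.4% of all genes were, and 0 of the 10 were lower in 3 of 3, where 12.8% were. The median difference was 0.29 log2 units over the 10 genes and 0.03 over all genes tested, and 9 of the 10 differences were positive, against 54.9% over all genes. The median over the 10 genes was 0.20, 0.42 and 0.25 in pairs 1, 2 and 3. In sorted bulk samples, more cells that express a gene and more of its RNA per cell cannot be told apart.

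The count of 3 genes fell when any pair was left out, but such a fit also has fewer residual degrees of freedom. A lower count therefore does not by itself show that a pair carried the differences. Without pair 1 the count was 0, where 5.61% of all genes were higher by the same rule. The differences of Egr1, Nr4a1 and Cited2 were then 0.57, 0.56 and 0.32 log2 units, against 0.64, 0.48 and 0.52 with all pairs. Without pair 2 the count was 1, Egr1, against 4% of all genes. Without pair 3 it was 2, Egr1 and Cited2, against 4.62%.

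**Figure D2:**
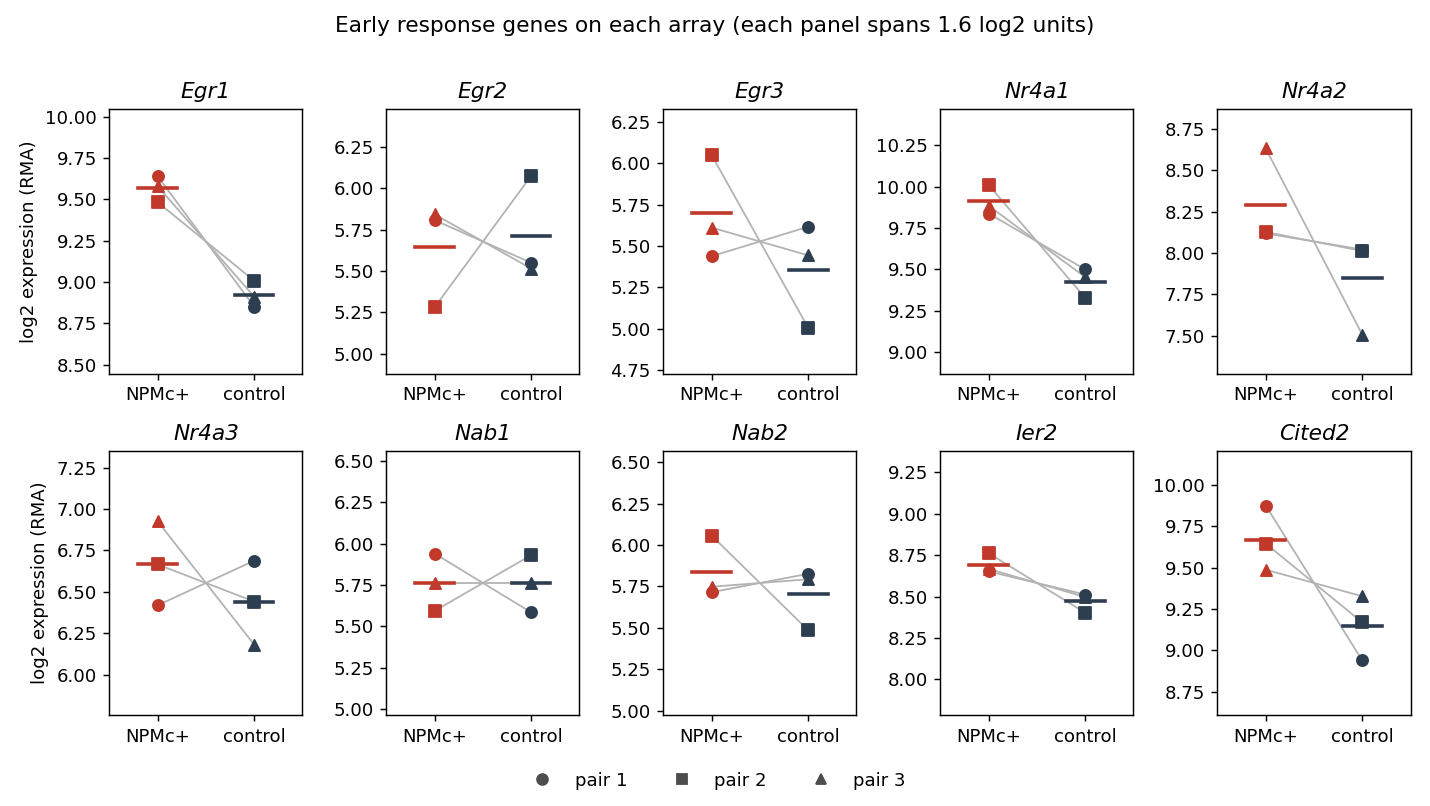
Log2 expression of each of the 10 genes on the 6 arrays, NPMc+ left and control right, with a grey line between the arrays of a pair and a bar at each group mean. The groups do not overlap for Egr1, Nr4a1, Nr4a2, Ier2 and Cited2; each panel has its own centre, and levels of different probe sets are not to be set against each other.

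Egr1 had 9.64, 9.48 and 9.58 log2 units in NPMc+ pools 1, 2 and 3, against 8.85, 9.01 and 8.91 in the control pools. All 3 NPMc+ pools lay above all 3 control pools, with means of 9.57 ± 0.08 in NPMc+ and 8.92 ± 0.08 in control (SD, n = 3 each; the tie between paired arrays sets these SDs, which are no sign of how alike the pools were). The difference was 0.64 ± 0.18 log2 units (SE), with a 95% interval of 0.21 to 1.08 and a limma p of 0.0103 unadjusted and 0.429 adjusted. The pair differences were 0.79, 0.47 and 0.67, and their SD of 0.158 was larger than that of 17.1% of genes tested. The unadjusted p was 0.0672 without pair 1.

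Egr2, the EGR factor known from nerve myelination and lymphocyte tolerance, had 5.81, 5.28 and 5.84 log2 units in NPMc+ pools and 5.55, 6.08 and 5.51 in control pools. Pair 2 ran opposite to the others, at -0.79 against 0.26 and 0.33, and the groups overlapped. Its mean difference was -0.07 ± 0.27 (SE), with a 95% interval of -0.71 to 0.57, and without pair 2 its sign turned, at 0.29.

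Egr3, a close relative of Egr2 induced by antigen receptors, had 5.44, 6.05 and 5.61 log2 units in NPMc+ pools and 5.62, 5.01 and 5.44 in control pools. Here pair 2 gave the largest difference, 1.04, beside -0.18 and 0.17 in pairs 1 and 3, so the pair that was lowest for Egr2 was highest for Egr3. The mean difference of 0.34 ± 0.27 (SE) had a 95% interval of -0.29 to 0.98, and without pair 2 it was -0.0050. Their pair SDs of 0.628 and 0.629 were larger than those of 85.2% and 85.3% of genes tested.

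Nr4a1, also called Nur77 and a reporter of antigen receptor and growth signals, had 9.84, 10.01 and 9.88 log2 units in NPMc+ pools and 9.50, 9.33 and 9.45 in control pools. The groups did not overlap, and the difference was 0.48 ± 0.18 log2 units (SE; 95% interval 0.05 to 0.92), with a limma p of 0.0350 unadjusted and 0.518 adjusted. Pair differences were 0.34, 0.68 and 0.43. The unadjusted p was 0.0744, 0.127 and 0.0833 without pairs 1, 2 and 3, while the difference stayed between 0.38 and 0.56.

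Nr4a2, also called Nurr1 and best known from dopamine neurons, had 8.12, 8.13 and 8.63 log2 units in NPMc+ pools and 8.02, 8.01 and 7.51 in control pools. Pairs 1 and 2 differed by 0.10 and 0.11 and pair 3 by 1.13, so that 1 pair carried most of the mean difference of 0.45 ± 0.26 (SE; 95% interval -0.17 to 1.06, limma adjusted p 0.674). Without pair 3 the difference was 0.11.

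Nr4a3, also called Nor1, had 6.42, 6.67 and 6.93 log2 units in NPMc+ pools and 6.69, 6.44 and 6.18 in control pools. Its groups overlapped, with pair differences of -0.27, 0.22 and 0.75. As for Nr4a2, pair 3 was the highest, and without it the difference of 0.23 ± 0.24 (SE; 95% interval -0.34 to 0.80) turned to -0.02.

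**Figure D3:**
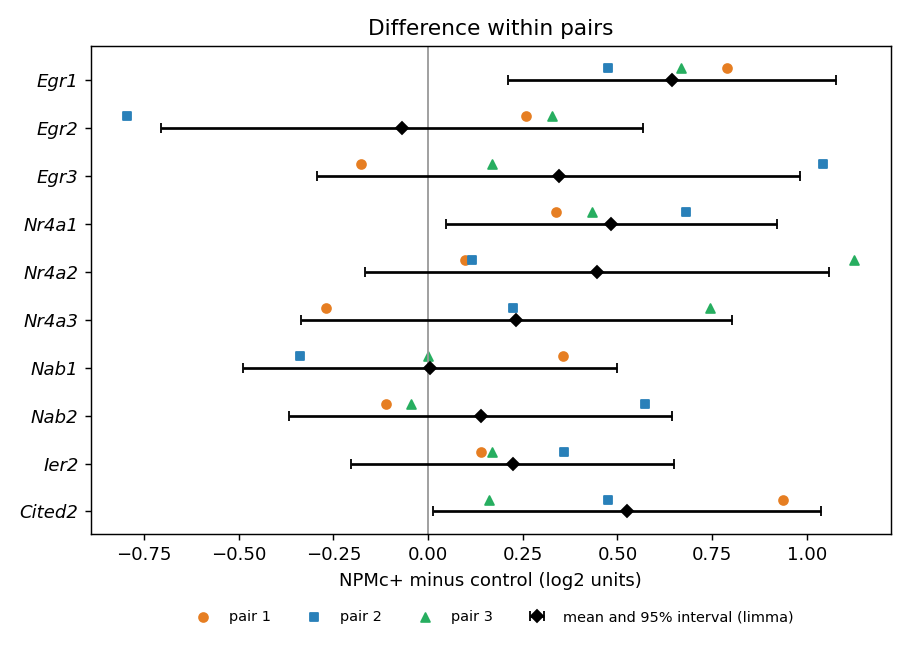
NPMc+ minus control in log2 units for the 10 genes, with coloured marks for the 3 pairs and a diamond with a bar for the limma mean and its 95% interval. The intervals of Egr1, Nr4a1 and Cited2 lie above 0; pair 2 stands apart for Egr2 and Egr3 and pair 3 for Nr4a2.

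Nab1 and Nab2 encode corepressors that bind EGR proteins and limit their activity, and Nab2 is itself known to be induced by Egr1. Nab1 had 5.94, 5.59 and 5.76 log2 units in NPMc+ pools and 5.59, 5.93 and 5.76 in control pools. Its groups overlapped around a difference of 0.01 ± 0.21 (SE; 95% interval -0.49 to 0.50). For Nab2 the brighter probe set had 5.72, 6.06 and 5.75 in NPMc+ pools and 5.83, 5.48 and 5.79 in control pools. The difference was 0.14 ± 0.21 (SE; 95% interval -0.37 to 0.64), and without pair 2 it was -0.08. The second Nab2 probe set gave -0.14, so the 2 probe sets of this gene disagreed in sign, and their mean gave -0.0026. On a linear scale the interval of Nab1 runs from 0.713-fold to 1.41-fold.

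Ier2, a small nuclear protein of the immediate early response, had 8.65, 8.76 and 8.67 log2 units in NPMc+ pools and 8.51, 8.40 and 8.50 in control pools. The groups did not overlap, but the step between them was small, at 0.22 ± 0.18 (SE; 95% interval -0.20 to 0.65, limma adjusted p 0.781). Its pair differences of 0.14, 0.36 and 0.17 had the smallest SD of the 10 genes, 0.119.

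Cited2, which binds the coactivators CBP and p300 and limits the hypoxia response, had 9.88, 9.65 and 9.49 log2 units in NPMc+ pools and 8.94, 9.17 and 9.33 in control pools. The groups did not overlap, and pair 3 showed the narrowest gap. The difference was 0.52 ± 0.21 log2 units (SE; 95% interval 0.01 to 1.04), with a limma p of 0.0461 unadjusted and 0.551 adjusted. The pair differences were 0.94, 0.48 and 0.16. Without pair 1 the difference was 0.32, with an unadjusted p of 0.266, and without pair 2 it was 0.55, with an unadjusted p of 0.0898. The unadjusted p was 0.0537 after quantile normalization and 0.0553 among genes above the 50th percentile.

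**Figure D4:**
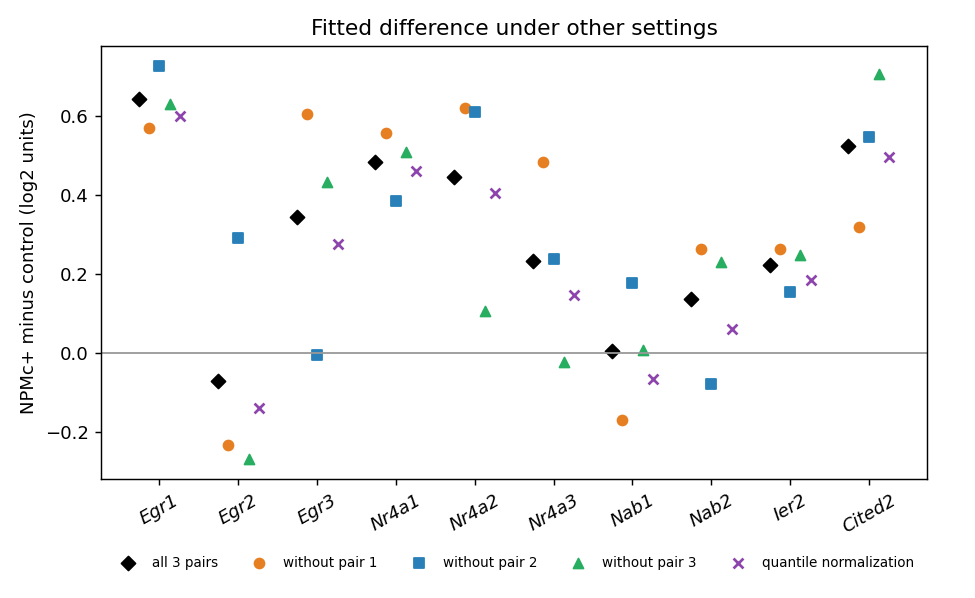
Fitted NPMc+ minus control in log2 units with all 3 pairs, without each pair in turn, and after quantile normalization. Egr1, Nr4a1, Nr4a2, Ier2 and Cited2 stay above 0 in all 5 settings; the other 5 genes lie on both sides of 0 in the settings shown.

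Related genes were described by 6 lists that leave out these 10. Of 39 other immediate early genes tested of 40 listed, 4 were higher at a nominal p under 0.05 and 0 lower, where 5.95% and 3.02% of all genes were, with a median of 0.09 log2 units. These were the AP-1 subunits Jun at 1.57-fold and Fosb at 1.45-fold, the zinc finger factor Klf6 at 1.47-fold and the small GTPase Rhob at 1.44-fold (limma adjusted p 0.457 to 0.532). Egr4, the EGR factor outside the list of 10, differed by 0.07 ± 0.18 (SE); it was picked for its family after values were seen. Without pair 1 or without pair 2, 1 of the 39 was higher at a nominal p under 0.05, where 5.61% and 4% of all genes were. Without pair 3, 5 were higher, against 4.62% of all genes. The median was 0.20 without pair 1. With all pairs, 26 of the 39 differences were positive and 13 negative, against 54.9% positive over all genes.

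Of 27 kinases and transcription factors upstream of these genes that were tested, of 32 listed, 25 had a positive difference, against 54.9% of all genes, with a median of 0.27 log2 units. At a nominal p under 0.05, 3 were higher, against 5.95% of all genes, and 0 lower. Crtc3, a CREB coactivator, was 1.92-fold higher (0.94 ± 0.18 log2 units, SE; limma adjusted p 0.329), with pair differences of 0.73, 1.13 and 0.95. Nfatc1, a calcium-regulated factor, was 1.69-fold higher, and Rps6ka5, the kinase MSK1, which phosphorylates CREB, was 1.64-fold higher, with most of it in pair 3, at 1.52, and a difference of 0.31 log2 units without that pair. Without pair 1, 2 or 3 the upstream list had 3, 3 and 2 genes higher by this rule, where 5.61%, 4% and 4.62% of all genes were. Of 18 feedback inhibitors of ERK signalling, 0 had a nominal p under 0.05 in limma, against 8.97% of all genes. Without pair 2, 1 of the 18 was higher, against 4% of all genes. The median was 0.22, or 0.14 without pair 1 and 0.15 without pair 3, with pair medians of 0.26, -0.16 and 0.07. The largest differences in that list were Spry2 at 0.45 ± 0.29 and the phosphatase gene Dusp7 at 0.44 ± 0.23 log2 units (SE). Of its 18 differences 14 were positive and 4 negative, against 54.9% positive over all genes.

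Of 20 binding partners and co-regulators tested of 25 listed, 2 were higher at a nominal p under 0.05 and 0 lower, against the same shares of all genes, with a median of 0.11, or 0.22 without pair 1 and 0.043 without pair 3. Without pair 1 or without pair 2, 1 was higher, where 5.61% and 4% of all genes were. The 2 higher with all pairs were Smad3, a TGF-beta signal carrier, at 1.93-fold (0.95 log2 units, or 0.63 without pair 2), and Hif1an at 1.44-fold. Hif1an inhibits hypoxia-inducible factor, as Cited2 does by another route. Of the 20 partners 15 had a positive difference and 5 a negative one, against 54.9% positive over all genes. Among 29 genes tested of 30 reported as targets of Egr1, the NR4A receptors or Cited2, 5 were higher and 2 lower. Over all genes 5.95% and 3.02% were. The median was 0.05 (0.03 over all genes tested), or 0.091 without pair 3, with 16 differences positive and 13 negative. Without any 1 pair, 3 were higher, where 5.61%, 4% and 4.62% of all genes were without pairs 1, 2 and 3. The cell cycle inhibitor Cdkn1a, reported downstream of Egr1 in mouse stem cells, was 1.59-fold higher (0.67 ± 0.18 log2 units, SE; limma adjusted p 0.410). Ccnd1, the cyclin D1 gene, was 1.92-fold higher, with pair differences of 0.13, 1.81 and 0.89 log2 units and a mean of 0.51 without pair 2. Runx3 was 1.67-fold higher, Tgfb1 1.43-fold and Vegfa 1.37-fold. Irf4, also a lymphocyte factor, was 3.0-fold lower and Thbs1, also a platelet gene, 1.98-fold lower. The pair differences of Thbs1 were -1.26, -1.53 and -0.15. Of these named targets, only Cdkn1a and Irf4 kept an unadjusted limma p under 0.05 whichever pair was left out.

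**Figure D5:**
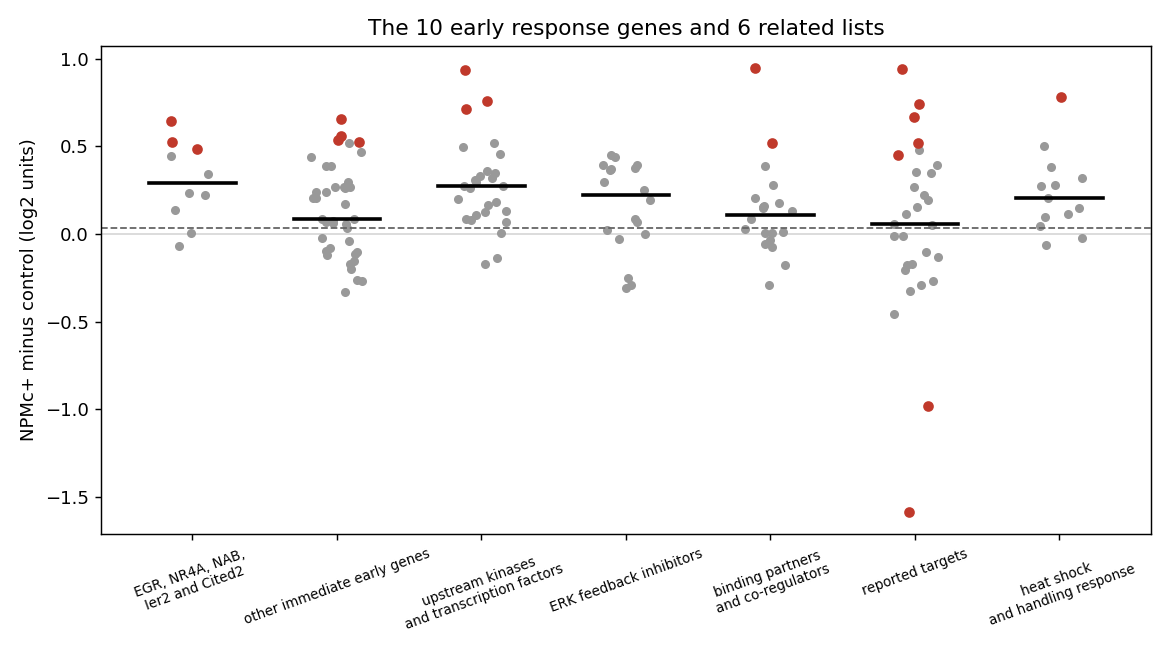
NPMc+ minus control in log2 units for the 10 genes and the genes of 6 related lists, 1 point per gene, red at an unadjusted limma p under 0.05, with a black bar at each median and a dashed line at the median of all genes tested, 0.03. The median of the 10 genes is 0.29 and those of the lists lie between 0.05 and 0.27.

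Heat shock genes are known to respond to the handling of cells before lysis. Of 13 tested of 16 listed, 11 had a positive difference, against 54.9% of all genes. At a nominal p under 0.05, 1 was higher and 0 lower, where 5.95% and 3.02% of all genes were. It was the small chaperone gene Hspb1 at 1.72-fold, with pair differences of 0.50, 0.22 and 1.63 and a mean of 0.36 without pair 3. The list's median was 0.21, with pair medians of 0.07, 0.13 and 0.26, against 0.20, 0.42 and 0.25 for the 10 early response genes. Leaving out pair 2 gave a median of 0.32 with 3 genes higher, against 4% of all genes. Leaving out pair 3 gave 0.069 with 0 higher, against 4.62% of all genes. The part of handling in the differences of the 10 genes was not tested.

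Markers of cell types also differed between the groups. The summed signal of 20 of 22 LT-HSC markers was 3574 to 3792 in NPMc+ pools and 2264 to 2393 in control pools. These sums are linear, so bright genes weigh most. The tie between paired arrays also shapes the ranges given here, which are no sign of how alike the pools were. At a nominal p under 0.05, 9 of 20 were higher and 1 lower. Over all genes 5.95% were higher and 3.02% lower, the shares to set beside each list here. The 9 include Hoxa9, Hoxb5 and Meis1. Of the 20 differences 17 were positive and 3 negative. Procr differed by 0.08, Tek by 0.03, Fgd5 by -0.20 and Mllt3 by -0.21 log2 units. For megakaryocyte markers, with 12 of 15 measured, the sums were 1638 to 1874 in NPMc+ and 921 to 1020 in control. By the same rule 8 of 12 were higher and 1 lower. B cell markers, with 11 of 13 measured, summed to 292 to 321 in NPMc+ and 666 to 687 in control. Of the 10 tested, 7 were lower and 0 higher by that rule. Neutrophil and monocyte markers, all 24 measured, summed to 25858 to 30366 in NPMc+ and 32060 to 40536 in control, with pair medians of -0.94, -0.90 and -0.14. In that list 11 were lower and 0 higher at a nominal p under 0.05, with 20 differences negative and 4 positive. Erythroid markers, with 11 of 14 measured, summed to 2683 to 3443 in NPMc+ and 3651 to 4719 in control, with 7 of 11 lower at a nominal p under 0.05. The sums of T and NK cell markers, 16 of 17 measured, overlapped at 1455 to 1618 in NPMc+ and 1546 to 1686 in control. Single genes of that list differed: 5 were lower and 2 higher at a nominal p under 0.05, 12 of 16 differences were negative, and the pair medians were -0.22, -0.28 and -0.41. The T cell genes Cd3d and Cd2 were 2.78-fold and 2.81-fold lower, while the bright probe set of Nkg7 averaged 10.25 log2 units in NPMc+ and 9.77 in control. RMA values have no 0, so no marker can be called absent. The part of these shifts in the differences of the 10 genes was not tested.

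The genes whose 3 pair differences lay nearest to those of Egr1, by root-mean-square distance among 14483 genes, were Etnk1, Akap13, Dbt, Ica1 and Gramd1a, at 0.034 to 0.089 log2 units. For Nr4a1 they were Arsa, Hps5, Zfp235, Ripk3 and Dctn1, at 0.018 to 0.029. With 3 pairs, likeness of this kind is common: 90 genes lay within 0.2 log2 units of Egr1 and 462 of Nr4a1. None of the other 9 early response genes was among the nearest 5 of either.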

How the data were processed

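The authors' deposited values are log2 expression of 41345 probe sets on 6 arrays, made with RMA per the submitters' processing notes; the version of RMA and the steps after it were not stated in any source used here. Per the labels' protocols, RNA (about 5 ng) was amplified before biotin labelling. Groups and replicate numbers came from the titles. Each pool holds several animals per the labels, and the number of arrays limits the precision.

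Same-numbered arrays were tied: their pair means were equal in 100% of probe sets (tolerance 0.001 log2 units, largest range 6.5e-05), against at most 0.343% under the 5 other pairings, and their deviations from group means correlated at -1. The fit therefore has the pair as a block, which leaves 2 residual degrees of freedom beside 4.54 prior ones. A platform annotation listing named 23521 probe sets with 1 symbol; RefSeq (GRCm38.p6) changed 0 of the 23328 symbols looked up. A filter kept genes whose mean reached the 25th percentile. Differences were tested with limma 3.58.1 in R 4.3.3 (lmFit and eBayes, two-sided), adjusted by Benjamini-Hochberg over 16635 genes, and the code was tested on simulated data. Figures used matplotlib 3.10.9.

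Alternatives were no block, no filter, a filter at the 50th percentile, quantile normalization, the mean of a gene's probe sets, an intensity trend and leaving out each pair. The text names the 10 genes, related-list genes at an unadjusted p under 0.05 (or the 2 largest differences) and the 5 nearest patterns. The nearest patterns leave out predicted genes, Riken clones, small RNAs and receptor families of smell. Markers of cell types are named only in part, and some of those named lie above that p. Egr4, Npm1 and the sex-linked genes are named outside this rule. The 10 genes and the lists were chosen with earlier results of these data known.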

Additional observations from a re-analysis of the deposited data

How the results depend on the processing

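Fitted without the pair block, limma called 828 genes at an adjusted p under 0.05 and 4138 at an unadjusted p under 0.05, against 0 and 1492 with it. Without the block Egr1 (adjusted p 0.0188) and Nr4a1 (0.0390) were among the 4.98% of genes called, Cited2 was not (0.0915), and Ier2 had an unadjusted p of 0.0237. That fit counts the tied arrays as independent, so these are not separate support. Leaving out each pair in turn gave 0 to 24 genes past the adjusted threshold, with 3 without pair 2 and 24 without pair 3, 23 of them lower, and 0 to 2 of the 10 early response genes at an unadjusted p under 0.05. The signs of 5 of the 10 turned when a pair was left out: differences ranged from -0.27 to 0.29 for Egr2, from -0.0050 to 0.61 for Egr3, from -0.023 to 0.48 for Nr4a3, from -0.17 to 0.18 for Nab1 and from -0.078 to 0.26 for Nab2. Nab1 was also -0.065 after quantile normalization, and Nab2 -0.0026 with its 2 probe sets averaged. Egr1, Nr4a1, Nr4a2, Ier2 and Cited2 kept their sign in all 9 alternatives. With each pair left out, list medians ranged from 0.065 to 0.20 for other immediate early genes, from 0.043 to 0.22 for binding partners and from 0.069 to 0.32 for heat shock genes; they ranged from 0.14 to 0.26 for ERK feedback inhibitors and from 0.074 to 0.091 for reported targets, whose median was 0.11 among genes above the 50th percentile. The causes were not tested.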
